A study of Caenorhabditis elegans with 15 samples.

Results

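The cytochrome P450 (CYP) genes of Caenorhabditis elegans were followed in larvae mutant for sma-6 or for sma-3, genes of a growth factor pathway. Members were taken by name: every gene of the deposited table with a systematic cyp name (a family number, a subfamily letter and a gene number), together with daf-9, which is a P450 under another name, and emb-8, the reductase that serves these enzymes. This gave 76 of 16259 genes, namely 75 P450 genes in 26 subfamilies and 16 families, and emb-8. Whole L2 larvae were the source of the poly-A RNA, and sma-6 mutants, sma-3 mutants and the wild type N2 had 5 libraries each. All animals were raised on plates seeded with E. coli at 20 degrees, and the labels name neither the alleles nor any other treatment. In this nematode sma-6 encodes a type I receptor and sma-3 a receptor-regulated Smad that act in signalling by DBL-1, a ligand of the bone morphogenetic protein family known for setting body size. The series compares each mutant with the wild type, and the mutants can also be set against each other.

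Cytochrome P450 enzymes are haem proteins that insert an oxygen atom into small molecules, using electrons passed on by a reductase. In the worm some of them make steroid hormones and lipid signals from polyunsaturated fatty acids, others are needed for the lipid layer of the eggshell, and large, recently expanded subfamilies are induced by foreign chemicals, mainly in the intestine. Members of one subfamily often lie side by side on a chromosome, and their sequences are similar. No sequence is printed here, and reads that near-identical copies could share were not examined, so neighbouring copies are uncertain in that respect.

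Levels below are CPM, the counts of a gene scaled to library size with TMM factors, and a gene is called changed at an edgeR quasi-likelihood adjusted p under 0.05 (Benjamini-Hochberg over 13720 tested genes). Libraries held 19.7 to 22.4 M counts in sma-6 mutants, 16.9 to 24.2 M in sma-3 mutants and 16.5 to 48.3 M in the wild type, and no pair of replicates agreed within counting noise (chi-square over its degrees of freedom 5.31 to 42.3 in 30 pairs). Each mutant had low transcript of its own gene: sma-6 lay at 8.83 to 9.75 CPM in sma-6 mutants, against 37.2 to 47.7 CPM in the wild type, and sma-3 lay at 8.86 to 10.8 CPM in sma-3 mutants, against 22.6 to 32.5 CPM in the wild type. Wild-type replicate 5 stood apart from its group. On the first principal component of all genes it lay at 22.97, where the sma-3 libraries lay between 13.3 and 23.1 and the other wild-type libraries between -6.98 and -2.82, so results that turn on it are also given without it. Library numbers in the sample titles run in a separate block for each genotype, so library order and genotype cannot be told apart and no comparison within such a batch is possible.

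Of the 76 members, 69 had enough counts to be tested. In sma-6 mutants 11 of the 69 differed from the wild type, 5 higher and 6 lower, against 6.5% of all genes tested (3% higher and 3.51% lower). In sma-3 mutants 13 of the 69 differed from the wild type, 7 higher and 6 lower, against 14.6% of all genes tested (4.4% higher and 10.2% lower). These comparisons share the wild-type libraries. The mutants differed from each other at 21 of the 69 genes, 13 higher and 8 lower in sma-6, against 23.1% of all genes tested (12.7% higher and 10.3% lower). As shares of the tested members these counts are 15.9%, 18.8% and 30.4%. Members without overlap between the libraries of the groups numbered 10 for sma-6 against the wild type (8.24% of all genes tested), 9 for sma-3 against the wild type (9.7% of all genes) and 10 for sma-6 against sma-3 (15.9% of all genes).

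The P450 genes did not move as a block. Their median log2 fold change was 0.18 in sma-6 mutants and 0.07 in sma-3 mutants, each against the wild type, where the medians over all genes tested were 0.01 and 0.01. The median size of the change, regardless of sign, was 0.31 and 0.32 for the members, against 0.12 and 0.15 for all genes. Summed over the 75 P450 genes, transcript amounted to 1202 ± 77.5 CPM in sma-6 mutants, 1012 ± 93.6 CPM in sma-3 mutants and 1113 ± 106 CPM in the wild type (SD, n = 5 each), and with emb-8 the members took 0.140%, 0.124% and 0.132% of the counts of those genotypes. In whole animals a change of this kind cannot be told apart from a change in the number of cells that make the transcript. Called in both mutants against the wild type were 3 members, cyp-13A12, cyp-37A1 and emb-8, all lower in both. Both comparisons use the same wild-type libraries, and the share of all genes called in both was not computed. In the 15 fits that left out 1 library, the sma-3 call of cyp-13A12 was lost in 6. The sma-6 call was lost in 8 of them for emb-8 and in 1 for cyp-37A1. Without wild-type replicate 5 the members called numbered 9 for sma-6, 14 for sma-3 (20.3% of the 69 tested) and 22 between the mutants (31.9%), while 5.66%, 22.2% and 26.5% of all genes were called in those fits. The sma-3 share of the members was then below that of all genes. Without wild-type replicate 2, the deepest library, 7 of 68 tested members were called for sma-3 (10.3%) and 8.39% of all genes. With library totals in place of TMM factors, 8 members were higher and 4 lower in sma-3 mutants, and 10 were higher and 10 lower in sma-6 relative to sma-3. Over all genes the split of the calls turned under that scaling, with 462 higher and 383 lower for sma-6 (411 and 481 under TMM), 1414 higher and 731 lower for sma-3 (603 and 1394 under TMM), and 1193 higher and 1955 lower between the mutants (1749 and 1420 under TMM).

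**Figure D1:**
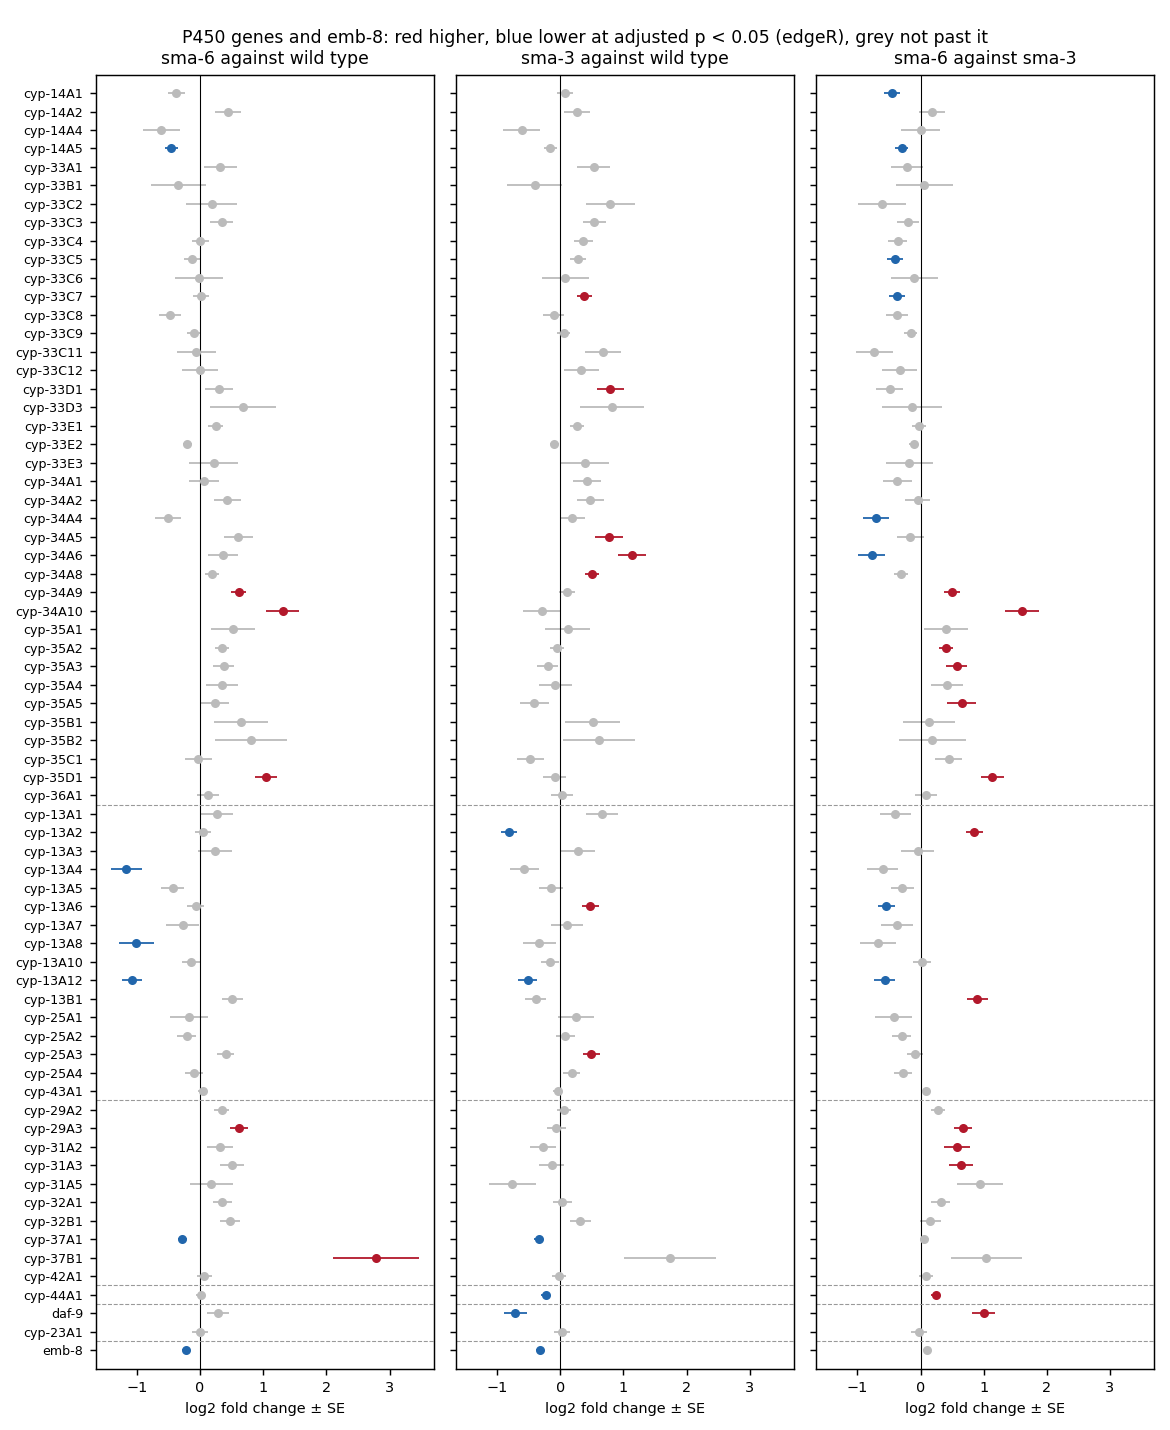
Log2 fold change ± standard error of the 69 tested members (rows, grouped by clan from CYP2 at the top to emb-8 at the bottom) in each comparison. The 11 genes called in sma-6, the 13 called in sma-3 and the 21 called between the mutants are coloured, and red and blue genes occur side by side within subfamilies.

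The gene emb-8 (chromosome III, 5196680 to 5199677, minus strand, protein coding, WBcel235) encodes NADPH-cytochrome P450 reductase, the electron donor of these enzymes. Its wild-type level of 104 ± 6.33 CPM per kb of exon (SD, n = 5) did not differ beyond the spread from that of cyp-35C1, at 100.4 ± 33.9 CPM per kb. In sma-6 mutants emb-8 stood at 89.0 ± 3.33 CPM per kb, below cyp-35A2 at 116.7 ± 13.8 CPM per kb. There it did not differ beyond the spread from cyp-35C1 at 98.7 ± 18.8 and cyp-35A3 at 97.7 ± 18.1 CPM per kb. Its level was 204, 192, 206, 206 and 213 CPM in the sma-6 libraries, 179, 188, 186, 217 and 179 CPM in the sma-3 libraries, and 234, 234, 220, 244 and 260 CPM in the wild-type libraries. Every mutant library lay below every wild-type library, and sma-3 replicate 5 lay closest to them. The log2 fold change was -0.22 ± 0.06 (SE) for sma-6 (edgeR adjusted p = 0.0358), and sma-3 mutants gave -0.33 ± 0.06 (edgeR adjusted p = 0.00286), with no call between the mutants (0.11 ± 0.06, edgeR adjusted p = 0.219). The sma-6 call was lost in 8 of the 15 fits that left out 1 library, with an edgeR adjusted p of up to 0.102 (0.0803 and log2 -0.19 without wild-type replicate 5), and the sma-3 call in none of them.

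Other genes of the electron supply fell in sma-3 mutants. A list of the reductase, cytochromes b5 and their reductases and the mitochondrial ferredoxin chain held 9 genes, of which 8 were in the table and tested. In sma-6 mutants emb-8 alone was lower than the wild type, where 3.51% of all genes tested were (median log2 fold change of the list -0.05). In sma-3 mutants 5 of the 8 were lower, where 10.2% of all genes were, and none was higher (median -0.25). Besides emb-8 these were cytb-5.1 (130.1 ± 20.4 CPM in sma-3 mutants, 187 ± 23.9 CPM in the wild type; log2 -0.52, edgeR adjusted p = 0.00713), the second cytochrome b5 gene cytb-5.2 (log2 -0.22, edgeR adjusted p = 0.0241), and the genes listed as cytochrome b5 reductases, hpo-19 (log2 -0.28, edgeR adjusted p = 0.0122), and as a mitochondrial ferredoxin, Y73F8A.27 (log2 -0.51, edgeR adjusted p = 0.00672). Between the mutants 4 of the 8 were higher in sma-6, where 12.7% of all genes tested were, with a list median of 0.31. Besides cytb-5.1, hpo-19 and Y73F8A.27 this was, with the smallest p of the 4, vem-1, a membrane protein of the progesterone-receptor type with a cytochrome b5 fold, at 99.0 ± 5.75 CPM in sma-6 mutants and 72.5 ± 5.1 CPM in sma-3 mutants (log2 0.45, edgeR adjusted p = 0.000824).

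Among the hormone-making enzymes, daf-9 was low in sma-3 mutants. The gene daf-9 (chromosome X, 6196927 to 6200823, plus strand, protein coding) encodes the P450 that completes the dafachronic acids, the steroid ligands with which the nuclear receptor DAF-12 promotes reproductive growth over dauer formation. Its level was 16.02, 15.4, 21.8, 11.5 and 15.3 CPM in the sma-6 libraries, 6.79, 9.24, 8.87, 8.47 and 6.61 CPM in the sma-3 libraries, and 16.3, 15.1, 12.4, 13.5 and 7.80 CPM in the wild-type libraries. All sma-6 libraries were above all sma-3 libraries, while wild-type replicate 5 fell among the sma-3 libraries and the other wild-type libraries above them. The log2 fold change was 1.00 ± 0.18 for sma-6 against sma-3 (edgeR adjusted p = 0.00116) and -0.71 ± 0.18 for sma-3 against the wild type (edgeR adjusted p = 0.0150), and sma-6 against the wild type gave 0.29 ± 0.17 (edgeR adjusted p = 0.366). Without wild-type replicate 5 the sma-3 value was -0.84 (edgeR adjusted p = 0.00127), and without wild-type replicate 2 it was -0.64 and no longer called (edgeR adjusted p = 0.0529).

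Of the 12 genes of dafachronic acid synthesis and response that were listed, 11 were in the table. In sma-6 mutants 3 were lower than the wild type, where 3.51% of all genes tested were, and none was higher. In sma-3 mutants 4 were lower, where 10.2% of all genes were, and none was higher. These counts include emb-8 in both and daf-9 in sma-3, and the list medians were 0.01 and -0.12. The Rieske oxygenase gene daf-36, which acts at the first step on cholesterol, was lower in both: 14.9 ± 2.77 CPM with sma-6 mutated (log2 -0.54, edgeR adjusted p = 0.00790) and 13.8 ± 0.370 CPM with sma-3 mutated (log2 -0.64, edgeR adjusted p = 0.00237), against 21.5 ± 2.65 CPM in the wild type (SD, n = 5 each). Every mutant library lay below every wild-type library, and the mutants overlapped each other, with 10.1 to 17.1 CPM in sma-6 mutants, 13.4 to 14.3 CPM in sma-3 mutants and 18.1 to 25.3 CPM in the wild type. The steroid dehydrogenase gene let-767 was lower in sma-3 mutants (log2 -0.38, edgeR adjusted p = 0.00372), and nhr-8, a nuclear receptor of sterol metabolism, in sma-6 mutants (log2 -0.27, edgeR adjusted p = 0.0270). Between the mutants, the DAF-12 cofactor din-1 was higher in sma-6 (log2 0.24, edgeR adjusted p = 0.0256), and the hydroxysteroid dehydrogenase hsd-1 was lower (0.311 ± 0.142 CPM in sma-6, 0.759 ± 0.239 CPM in sma-3; log2 -1.23, edgeR adjusted p = 0.0259). The receptor gene daf-12 itself gave log2 values of 0.01 in sma-6 and -0.10 in sma-3 mutants, neither called.

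**Figure D2:**
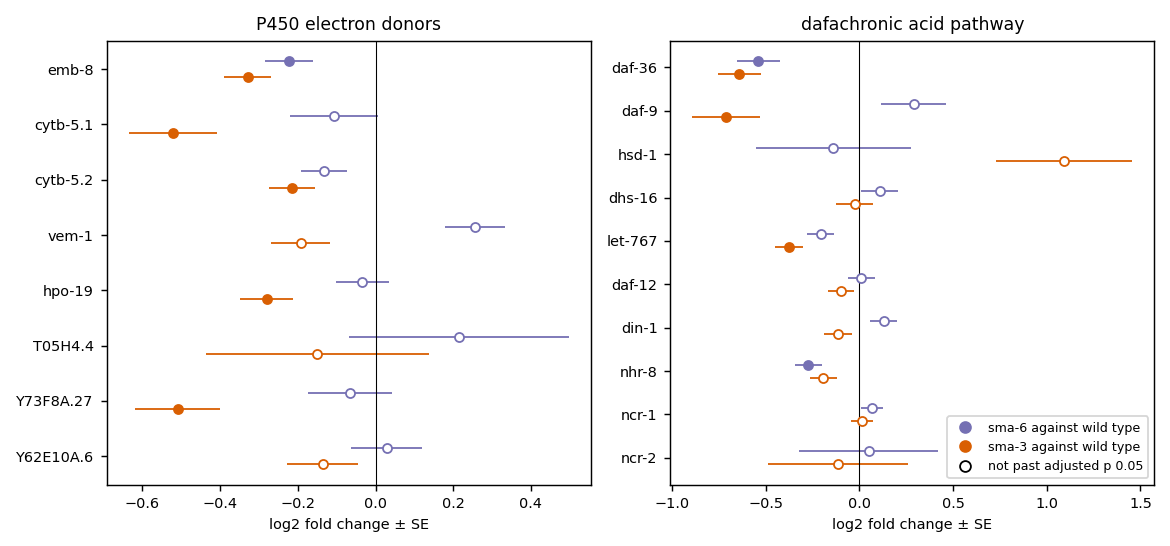
Log2 fold change ± standard error of the tested genes of the electron supply (left) and of dafachronic acid synthesis and response without emb-8 (right), for sma-6 and sma-3 mutants against the wild type. Filled points are called at an adjusted p under 0.05: the 5 electron donor genes called in sma-3 mutants lie left of 0, and in sma-6 mutants emb-8 alone is filled.

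The mitochondrial P450 cyp-44A1 (chromosome II, 5504044 to 5505975, plus strand) was measured at 15.9, 15.7, 16.97, 16.9 and 14.6 CPM in sma-6 mutants, 14.8, 13.7, 13.2, 12.1 and 14.2 CPM in sma-3 mutants and 14.7, 16.4, 15.2, 17.6 and 15.6 CPM in the wild type. The groups overlap throughout. It was called lower in sma-3 mutants (log2 -0.23 ± 0.08, edgeR adjusted p = 0.0482) and, between the mutants, higher in sma-6 (0.24 ± 0.08, edgeR adjusted p = 0.0291). The first of these calls was lost in 12 of the 15 fits that left out 1 library and the other in 5 of them.

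The CYP3 clan, which in the worm holds the 13A, 13B, 25A and 43A subfamilies, had 16 tested members. In sma-6 mutants 3 were lower than the wild type and none higher (median log2 fold change -0.12), in sma-3 mutants 2 were higher and 2 lower (median 0.02), and between the mutants 2 were higher and 2 lower in sma-6 (median -0.29). Of all genes tested, 3% were higher and 3.51% lower in sma-6 mutants, and 4.4% and 10.2% in sma-3 mutants. Between the mutants 12.7% were higher and 10.3% lower in sma-6. All of these shares apply to the clan, subfamily and array counts below. The 13A subfamily took the most transcript of the clan, and its 11 members summed to 122.8 ± 5.48 CPM in sma-6 mutants, 94.6 ± 10.1 CPM in sma-3 mutants and 135.1 ± 16.3 CPM in the wild type (SD, n = 5 each).

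Highest per kilobase among the 13A genes was cyp-13A2 (chromosome II, 9783384 to 9787629, minus strand), of the xenobiotic-responsive 13A group, which stood, at 36.5 ± 8.08 CPM per kb, in sixth place among the members by wild-type level per kilobase. It was measured at 83.5, 81.3, 88.0, 87.2 and 84.4 CPM in the sma-6 libraries, 39.3, 53.5, 53.6, 48.6 and 39.9 CPM in the sma-3 libraries, and 86.1, 91.7, 75.9, 103 and 54.8 CPM in the wild-type libraries. The sma-3 libraries lay below all others, with wild-type replicate 5 just above them. The log2 fold change was -0.81 ± 0.13 for sma-3 (edgeR adjusted p = 0.000902), 0.04 ± 0.13 for sma-6 (edgeR adjusted p = 0.888) and 0.85 ± 0.13 between the mutants (edgeR adjusted p = 0.000331). Without wild-type replicate 5 the sma-3 value was -0.93 (edgeR adjusted p = 1.64e-05).

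The gene cyp-13A12 (chromosome III, 13024547 to 13028017, plus strand), known for the behavioural response to reoxygenation after hypoxia, was lowest in sma-6 mutants. Its level was 5.13, 4.11, 3.16, 3.52 and 5.70 CPM in sma-6 mutants, 6.18, 6.84, 6.45, 7.50 and 5.13 CPM in sma-3 mutants and 9.41, 9.56, 11.2, 8.03 and 7.51 CPM in the wild type. No mutant library reached the wild-type range, and the mutants overlapped each other. The log2 fold change was -1.09 ± 0.16 for sma-6 (edgeR adjusted p = 0.000291), -0.52 ± 0.15 for sma-3 (edgeR adjusted p = 0.0309) and -0.57 ± 0.16 between the mutants (edgeR adjusted p = 0.0167). The sma-3 call was lost in 6 of the 15 fits that left out 1 library.

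Other genes of the same chromosome II array were called in the other mutant or in the opposite direction. At low levels, cyp-13A4 measured 2.54, 1.31, 0.968, 1.45 and 1.98 CPM in sma-6 mutants, against 3.10, 3.44, 3.40, 3.48 and 5.16 CPM in the wild type, without overlap (log2 -1.17 ± 0.24, edgeR adjusted p = 0.00598). Its sma-3 libraries, at 1.59 to 3.42 CPM, reached into the wild-type range (log2 -0.57, edgeR adjusted p = 0.105). The gene cyp-13A8 was lower in sma-6 mutants (1.25 ± 0.469 CPM, against 2.49 ± 0.734 CPM in the wild type; log2 -1.01 ± 0.28, edgeR adjusted p = 0.0357), a call lost in 6 of the 15 fits without 1 library. In the opposite direction, cyp-13A6 measured 6.74, 5.32, 5.45, 6.39 and 5.81 CPM in sma-3 mutants, above all wild-type libraries at 4.71, 4.03, 4.65, 3.10 and 4.93 CPM (log2 0.47 ± 0.13, edgeR adjusted p = 0.0229). Relative to sma-3 mutants its sma-6 level was lower (log2 -0.54 ± 0.13, edgeR adjusted p = 0.00734), and its sma-3 call was lost without wild-type replicate 2 or 4. The rifampicin-inducible cyp-13A7 was called in no comparison, at 1.35 ± 0.504 CPM in sma-6 mutants, 1.76 ± 0.571 CPM in sma-3 mutants and 1.66 ± 0.257 CPM in the wild type.

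Outside 13A, cyp-13B1 separated the mutants: 23.5, 18.2, 27.6, 24.1 and 23.1 CPM in sma-6, against 15.5, 11.8, 13.2, 8.87 and 13.01 CPM in sma-3, without overlap (log2 0.90 ± 0.17, edgeR adjusted p = 0.00130). The wild-type libraries of cyp-13B1, at 10.98 to 20.4 CPM, spanned the gap, and neither mutant was called against them. Of the 25A subfamily, cyp-25A3 was higher in sma-3 mutants (13.3 ± 2.45 CPM, against 9.57 ± 1.51 CPM in the wild type; log2 0.49 ± 0.13, edgeR adjusted p = 0.0178), with overlapping libraries, and this call was lost without wild-type replicate 2.

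**Figure D3:**
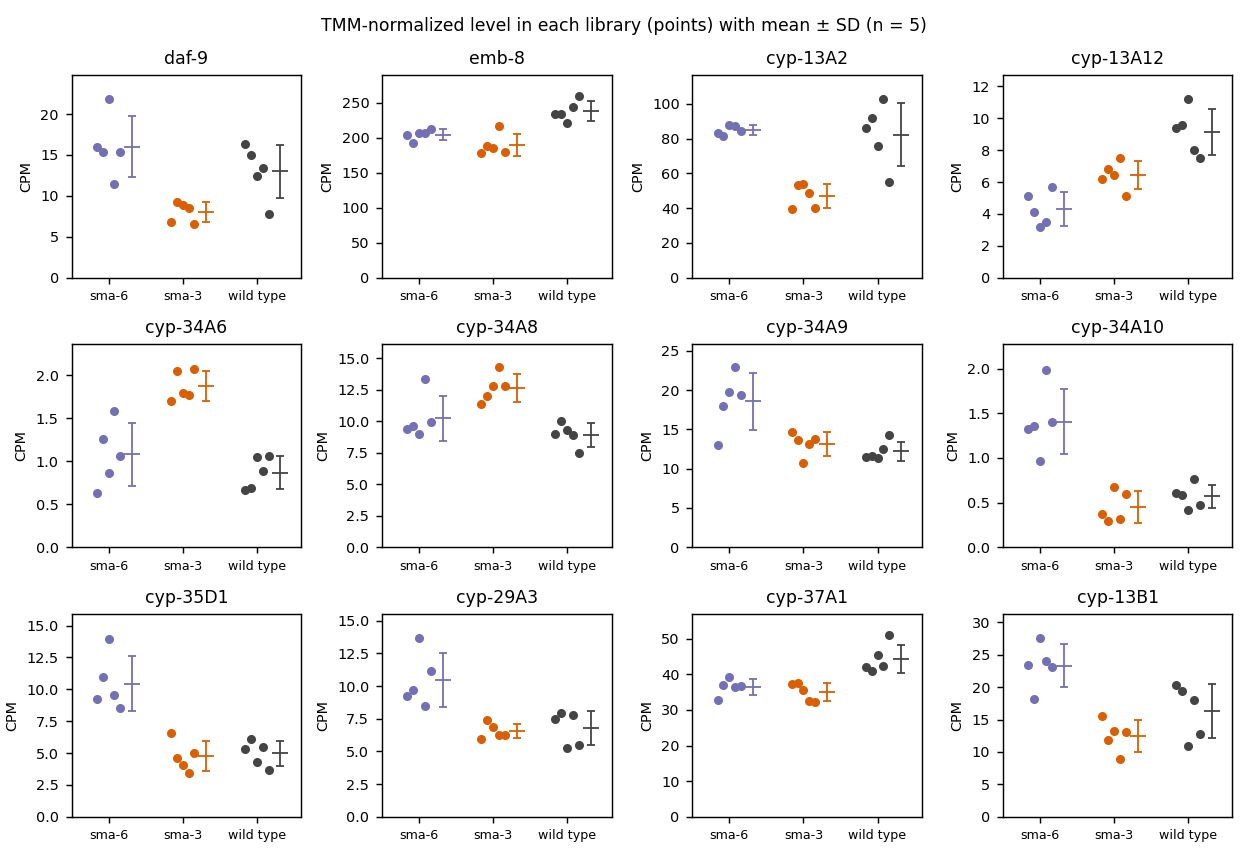
TMM-normalized CPM in each library (points, 5 per genotype) of 12 members, with mean ± SD beside them. In cyp-13A2 the 5 sma-3 libraries lie at 39.3 to 53.6 CPM, below all others, and in cyp-35D1 and cyp-34A10 the 5 sma-6 libraries lie above all others.

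With daf-9 and cyp-23A1 placed in no clan here, the CYP2 clan is the expanded one, with 43 members of which 39 were tested. In sma-6 mutants 3 were higher and 1 lower than the wild type (median log2 fold change 0.21), in sma-3 mutants 5 were higher and none lower (median 0.26), and between the mutants 6 were higher and 6 lower in sma-6 (median -0.13). The 34A subfamily held 5 of the 8 rises against the wild type. Of its 8 tested members 2 rose in sma-6 mutants, where 3% of all genes tested did, and 3 in sma-3 mutants, where 4.4% did. None fell, and the medians were 0.40 and 0.45. The 34A transcripts summed to 43.2 ± 6.85 CPM in sma-6 mutants, 42.8 ± 3.76 CPM in sma-3 mutants and 33.6 ± 1.76 CPM in the wild type (SD, n = 5 each).

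No 34A gene was called in both mutants, and of the 5 called in either, the difference between the mutants was itself called for cyp-34A6, cyp-34A9 and cyp-34A10. The member with the largest rise in sma-3 mutants, cyp-34A6 (chromosome V, 3958160 to 3961335, minus strand), measured 0.635, 1.26, 0.866, 1.59 and 1.06 CPM in sma-6 mutants, 1.70, 2.05, 1.79, 1.78 and 2.08 CPM in sma-3 mutants and 0.664, 0.689, 1.05, 0.885 and 1.06 CPM in the wild type. The sma-3 libraries lay above every other library (log2 1.14 ± 0.23 against the wild type, edgeR adjusted p = 0.00424), and sma-6 was lower than sma-3 (-0.78 ± 0.22, edgeR adjusted p = 0.0167). Against the wild type sma-6 gave 0.36 ± 0.24 (edgeR adjusted p = 0.416). These levels rest on 12 to 49 counts per library.

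The more abundant cyp-34A8 measured 11.4, 12.1, 12.8, 14.3 and 12.8 CPM in sma-3 mutants, against 8.97, 10.02, 9.31, 8.91 and 7.45 CPM in the wild type, without overlap (log2 0.50 ± 0.11, edgeR adjusted p = 0.00811). Its sma-6 libraries lay at 8.97 to 13.4 CPM, with 1 library above the rest, and were not called against either. Against sma-3 the sma-6 value was -0.30 (edgeR adjusted p = 0.0546), and without wild-type replicate 5, it was -0.30 and called (edgeR adjusted p = 0.0392). Also called in sma-3 mutants, cyp-34A5 averaged 1.88 ± 0.486 CPM, against 1.07 ± 0.321 CPM in the wild type (log2 0.77 ± 0.23, edgeR adjusted p = 0.0303), a call lost in 4 of the 15 fits without 1 library.

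Called in sma-6 mutants were cyp-34A9 and cyp-34A10. The gene cyp-34A9, also named dod-16 as a target downstream of the insulin pathway factor DAF-16, measured 13.01, 17.9, 19.8, 22.9 and 19.4 CPM in sma-6 mutants, 14.7, 13.7, 10.7, 13.1 and 13.8 CPM in sma-3 mutants and 11.5, 11.7, 11.4, 12.4 and 14.3 CPM in the wild type. Apart from sma-6 replicate 1 the sma-6 libraries lay above all others (log2 0.61 ± 0.12 against the wild type, edgeR adjusted p = 0.00557; 0.50 ± 0.12 against sma-3, edgeR adjusted p = 0.00804). At the far end of the array, cyp-34A10 measured 1.32, 1.36, 0.968, 1.98 and 1.40 CPM in sma-6 mutants, 0.377, 0.292, 0.676, 0.311 and 0.593 CPM in sma-3 mutants and 0.609, 0.584, 0.418, 0.758 and 0.469 CPM in the wild type. All sma-6 libraries were above all others (log2 1.31 ± 0.26 against the wild type, edgeR adjusted p = 0.00483; 1.61 ± 0.27 against sma-3, edgeR adjusted p = 0.000717), on 19 to 45 counts per sma-6 library and 5 to 28 counts per library elsewhere. Between the mutants cyp-34A4 was lower in sma-6 (2.67 ± 0.975 CPM, against 4.38 ± 0.312 CPM in sma-3; log2 -0.71 ± 0.20, edgeR adjusted p = 0.0186), a call lost in 3 of the 15 fits without 1 library.

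Position shows the same mixture. Linking members no more than 10 kb apart gave 12 arrays with 45 of the 76 members, and chromosome V held 42 members, chromosome II 12, X 8, III 7, IV 6 and I 1. The longest array, on chromosome V from 3936326 to 3972991, holds 11 genes: cyp-35A5, the 3 35B genes and cyp-34A4 to cyp-34A10. Of its 9 tested genes 2 rose in sma-6 mutants and 3 in sma-3 mutants, and between the mutants 3 were higher and 2 lower in sma-6. The genes called in sma-3 and those called in sma-6 were neighbours within it. The chromosome II array, from 9779181 to 9807569, holds cyp-13A1 to cyp-13A8, of which 2 fell in sma-6 mutants while 1 rose and 1 fell in sma-3 mutants. A cluster of 5 33C genes on chromosome V, from 2236140 to 2252591, had 1 rise in sma-3 mutants and, between the mutants, 2 genes lower in sma-6.

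**Figure D4:**
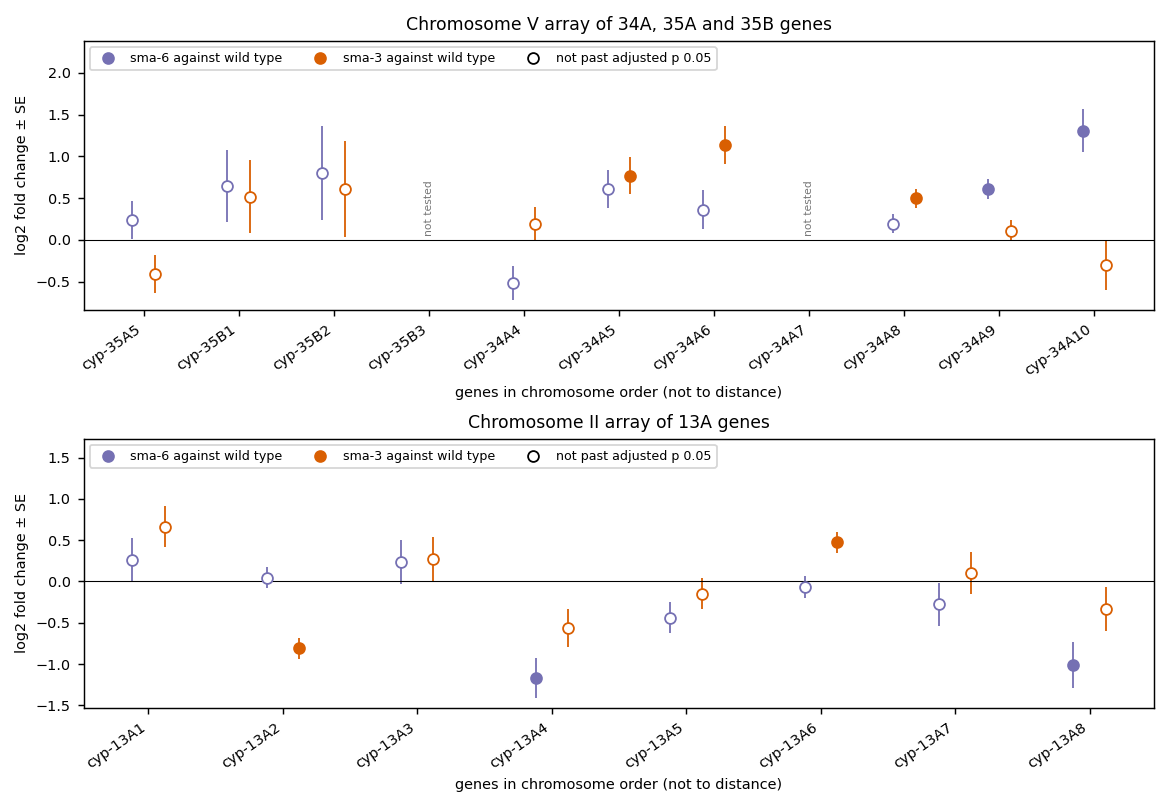
Log2 fold change ± standard error against the wild type for the genes of the 11-gene array on chromosome V (top) and the 8-gene array on chromosome II (bottom), in chromosome order, for sma-6 and sma-3 mutants. Filled points are called at an adjusted p under 0.05. Called genes sit next to uncalled ones, as with cyp-13A2 at -0.81 in sma-3 beside cyp-13A1 at 0.66.

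Family 35 holds the most abundant P450 genes of these larvae, and members of it are known to be induced by foreign chemicals and, in the case of cyp-35A2, to affect fat storage. Per kilobase, cyp-35C1 reached 100.4 ± 33.9, cyp-35A2 91.5 ± 11.4 and cyp-35A3 75.4 ± 15.98 CPM per kb in the wild type. These 3 genes do not differ from each other beyond their spread, and the next gene, cyp-14A5 at 41.1 ± 3.07 CPM per kb, is lower. No gene of the 35A subfamily was called against the wild type in either mutant, with medians over its 5 members of 0.35 in sma-6 and -0.08 in sma-3 mutants. Summed, the 35A genes gave 395.9 ± 60.0 CPM in sma-6 mutants, 283.8 ± 60.4 CPM in sma-3 mutants and 309.6 ± 56.3 CPM in the wild type.

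Between the mutants 3 of the 5 were higher in sma-6, where 12.7% of all genes tested were, with a median of 0.42. The level of cyp-35A2 (chromosome V, 7362319 to 7364182, minus strand) was 148, 203, 199, 193 and 183 CPM in sma-6 mutants, 157, 136, 116, 122 and 171 CPM in sma-3 mutants and 172, 149, 147, 123 and 135 CPM in the wild type. Apart from sma-6 replicate 1, the sma-6 libraries lay above all others (log2 0.40 ± 0.11 against sma-3, edgeR adjusted p = 0.0156), and the call was lost without sma-3 replicate 4 (edgeR adjusted p = 0.0513). For cyp-35A3 the difference was 0.57 ± 0.16 (155.1 ± 28.7 CPM in sma-6, 104.4 ± 23.8 CPM in sma-3; edgeR adjusted p = 0.0182), lost in 3 of the 15 fits without 1 library. For cyp-35A5 it was 0.65 ± 0.23 (24.1 ± 5.42 CPM in sma-6, 15.3 ± 5.46 CPM in sma-3; edgeR adjusted p = 0.0471), lost in 11 of them.

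These genes varied together between libraries of one genotype. In all 6 genes of the 35A and 35C subfamilies sma-3 replicates 2 and 9 were the highest of their group and replicates 4 and 5 the lowest, and wild-type replicates 1 and 2 were the highest of theirs. In sma-6 mutants replicate 1 was the lowest library in each of the 5 35A genes. Within sma-3 mutants the highest library of cyp-35A1 stood 5.06 times above the lowest, and that of cyp-35A2 1.47 times. Over the 33 members with a mean of at least 5 CPM in each genotype, the coefficient of variation within a genotype (median of the 3 genotypes) ran from 5.07% for cyp-33E2 to 36.6% for cyp-35A4, with a median of 14.8%. The library order is a description and its source was not tested.

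**Figure D5:**
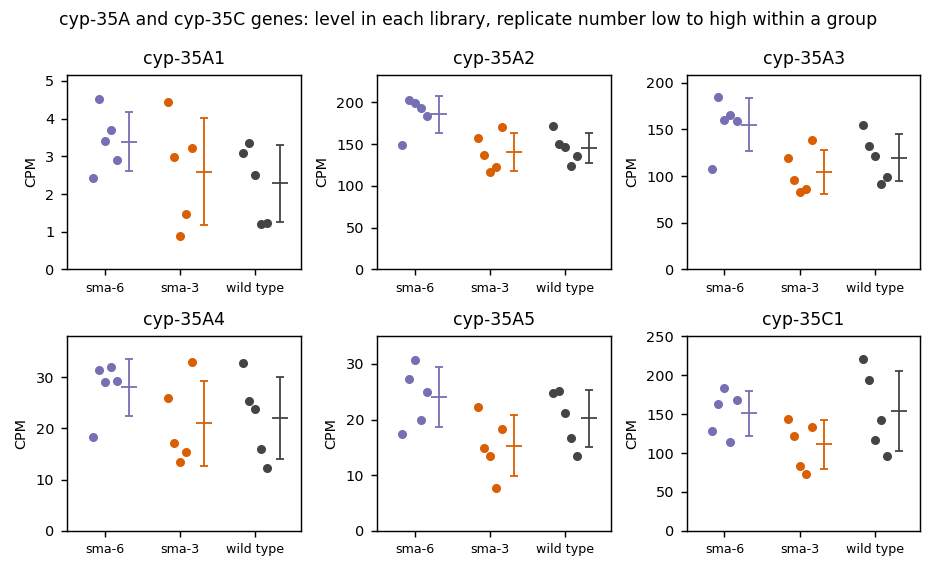
TMM-normalized CPM in each library (points in order of replicate number, 5 per genotype) of the 5 35A genes and cyp-35C1, with mean ± SD beside them. The same sma-3 libraries are highest in all 6 panels, and the lowest sma-6 point of each 35A panel is replicate 1.

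Unlike the 35A genes, the single gene of 35D was called in sma-6 mutants against the wild type. The level of cyp-35D1 was 9.25, 10.97, 13.96, 9.56 and 8.50 CPM in sma-6 mutants, 6.55, 4.62, 4.10, 3.46 and 5.00 CPM in sma-3 mutants and 5.32, 6.13, 4.29, 5.50 and 3.70 CPM in the wild type. All sma-6 libraries exceeded all others, and sma-3 and wild-type libraries overlapped. As in the 35A genes, sma-3 replicates 2 and 9 were the highest of their group and replicates 4 and 5 the lowest. In the wild type, however, replicates 2 and 4 were highest, and in sma-6 mutants replicate 6 was lowest. The log2 fold change was 1.05 ± 0.17 for sma-6 against the wild type (edgeR adjusted p = 0.00102), 1.14 ± 0.18 for sma-6 against sma-3 (edgeR adjusted p = 0.000397) and -0.09 ± 0.18 for sma-3 against the wild type (edgeR adjusted p = 0.786). Neither of its calls was lost under any of the 24 alternatives.

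The level of cyp-35C1 (chromosome V, 13896663 to 13898487, minus strand) spread widely, at 129, 163, 183, 114 and 168 CPM in sma-6 mutants, 144, 122, 82.9, 72.7 and 134 CPM in sma-3 mutants and 221, 193, 117, 143 and 96.3 CPM in the wild type. The groups overlapped and no comparison was called (log2 -0.47 ± 0.22 in sma-3 mutants, edgeR adjusted p = 0.152). Without wild-type replicate 5 its sma-3 value was -0.60 and was called (edgeR adjusted p = 0.0437). The 35B genes, of which cyp-35B1 is known as dod-13 and responds to DAF-16, were low. Of the 3, 2 were tested and neither was called, with cyp-35B1 at 1.24 ± 0.911 CPM in sma-6 mutants, 1.15 ± 0.372 CPM in sma-3 mutants and 0.760 ± 0.313 CPM in the wild type.

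In family 33, all 10 tested 33C genes had a negative log2 value for sma-6 against sma-3 (median -0.36, and 0.01 over all genes tested). The share of all genes with a negative value was not computed, and reads shared by similar copies were not examined. Against the wild type the median of the subfamily was -0.01 for sma-6 and 0.35 for sma-3. Between the mutants 2 of the 10 were called, both lower in sma-6, where 10.3% of all genes tested were. The called genes were cyp-33C5 (3.98 ± 0.327 CPM in sma-6, 5.28 ± 0.649 CPM in sma-3; log2 -0.41 ± 0.12, edgeR adjusted p = 0.0257) and cyp-33C7 (10.7 ± 2.07 CPM in sma-6, 13.9 ± 1.87 CPM in sma-3; log2 -0.37 ± 0.12, edgeR adjusted p = 0.0389). Both overlap between groups, and leaving out single libraries ended the first call in 5 and the other in 6 of 15 fits. Against the wild type cyp-33C7 was called in sma-3 mutants (10.7 ± 1.04 CPM in the wild type; log2 0.38 ± 0.13, edgeR adjusted p = 0.0486), a call lost in 9 of 15 fits.

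The level of cyp-33D1 was 2.45, 1.52, 2.75, 2.04 and 1.65 CPM in sma-3 mutants, against 1.49, 1.21, 1.36, 0.885 and 1.06 CPM in the wild type. The groups do not overlap, and the lowest sma-3 library lies next to the highest wild-type library (log2 0.79 ± 0.21, edgeR adjusted p = 0.0196). This call was lost without wild-type replicate 4 or sma-3 replicate 4. The pharyngeal gene cyp-33E2, which makes eicosanoids from eicosapentaenoic acid, was the steadiest of those 33 members between replicates. It measured 20.0, 18.5, 17.8, 19.2 and 19.9 CPM in sma-6 mutants, 22.2, 22.6, 20.2, 20.2 and 17.7 CPM in sma-3 mutants and 22.5, 20.3, 22.6, 22.5 and 22.3 CPM in the wild type. The sma-6 libraries lay just below all wild-type libraries, but the difference did not pass the adjusted threshold (log2 -0.20 ± 0.07, edgeR adjusted p = 0.0986).

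In the 14A subfamily, whose members respond to foreign chemicals, cyp-14A5 was lower in sma-6 mutants. It measured 54.1, 48.8, 35.9, 45.5 and 50.3 CPM in sma-6 mutants, 49.8, 61.4, 48.7, 60.7 and 67.5 CPM in sma-3 mutants and 66.9, 71.4, 60.9, 61.7 and 60.2 CPM in the wild type. All sma-6 libraries lay below all wild-type libraries (log2 -0.45 ± 0.10, edgeR adjusted p = 0.0126), and sma-3 libraries overlapped both. Sma-6 was also called lower than sma-3 (-0.30 ± 0.10, edgeR adjusted p = 0.0481), which 9 of 15 fits without 1 library lost. Between the mutants cyp-14A1 was lower in sma-6, at 5.08, 5.15, 5.04, 5.07 and 5.79 CPM in sma-6 against 5.85, 8.01, 5.89, 9.54 and 6.44 CPM in sma-3 (log2 -0.45 ± 0.13, edgeR adjusted p = 0.0182). The highest sma-6 library lies just under the lowest sma-3 library. The gene cyp-36A1, which in the hypoxia pathway acts downstream of EGL-9 and HIF-1, was called in no comparison (12.8 ± 2.54 CPM in sma-6 mutants, 12.01 ± 2.56 CPM in sma-3 mutants, 11.9 ± 3.15 CPM in the wild type).

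The CYP4 clan had 10 tested members. In sma-6 mutants 2 were higher and 1 lower than the wild type (median 0.35), in sma-3 mutants none was higher and 1 lower (median -0.04), and between the mutants 3 were higher and none lower in sma-6 (median 0.45). The gene cyp-29A3, which like cyp-33E2 is known for making eicosanoids, measured 9.25, 9.66, 13.7, 8.50 and 11.2 CPM in sma-6 mutants, 5.99, 7.37, 6.84, 6.25 and 6.27 CPM in sma-3 mutants and 7.47, 7.91, 5.28, 7.77 and 5.45 CPM in the wild type. All sma-6 libraries lay above all others (log2 0.61 ± 0.14 against the wild type, edgeR adjusted p = 0.0128; 0.68 ± 0.14 against sma-3, edgeR adjusted p = 0.00290).

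The eggshell genes cyp-31A2 and cyp-31A3 were near 2 CPM in these larvae. Between the mutants both were called higher in sma-6: cyp-31A2 at 2.23 ± 0.391 CPM in sma-6 and 1.48 ± 0.156 CPM in sma-3 (log2 0.58 ± 0.21, edgeR adjusted p = 0.0482), and cyp-31A3 at 2.62 ± 0.818 CPM in sma-6 and 1.69 ± 0.214 CPM in sma-3 (log2 0.64 ± 0.19, edgeR adjusted p = 0.0245). Neither was called against the wild type, where they averaged 1.83 ± 0.598 and 1.85 ± 0.181 CPM. The calls were lost in 12 and 4 of the 15 fits without 1 library. Of 10 listed germline markers, 4 were higher in sma-6 relative to sma-3, where 12.7% of all genes tested were, and none was lower. Their summed level was 293 to 449 CPM in sma-6 mutants, 241 to 279.8 CPM in sma-3 mutants and 220.0 to 349 CPM in the wild type, and none was at 0. Of 14 tested oocyte, eggshell and yolk genes 1 was higher in sma-6 relative to sma-3. The sum over all 19 listed genes was 54.6 to 89.5 CPM in sma-6 mutants and 44.3 to 63.0 CPM in sma-3 mutants. In the wild type it was 37.4 to 54.6 CPM apart from replicate 3, which stood at 342 CPM. That library held the highest wild-type cyp-31A2 level, at 2.77 CPM, while its cyp-31A3 level of 1.78 CPM lay among the others. The part of the germline and oocyte markers in the 31A values was not tested.

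The remaining CYP4 calls were in family 37, whose genes have no role stated here. The level of cyp-37A1 was 32.8, 37.1, 39.1, 36.3 and 36.6 CPM in sma-6 mutants, 37.4, 37.4, 35.5, 32.4 and 32.1 CPM in sma-3 mutants and 41.9, 41.1, 45.4, 42.3 and 50.9 CPM in the wild type. Every mutant library lay below every wild-type library. Log2 fold changes were -0.28 ± 0.07 for sma-6 (edgeR adjusted p = 0.0220) and -0.34 ± 0.07 for sma-3 (edgeR adjusted p = 0.00574). Without wild-type replicate 5 the sma-6 value was -0.23 and not called (edgeR adjusted p = 0.0525), and the sma-3 value was -0.29 (edgeR adjusted p = 0.00614).

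The largest fold change among the members was that of cyp-37B1 (chromosome V, 16278116 to 16280616, plus strand), at very low levels. It measured 0.635, 2.21, 1.38, 6.61 and 0.676 CPM in sma-6 mutants, 0.802, 0.760, 1.55, 0.799 and 1.65 CPM in sma-3 mutants and 0.0554, 0.271, 1.05, 0.190 and 0.117 CPM in the wild type. The wild-type values rest on 1, 13, 20, 3 and 2 counts, and wild-type replicate 3 lies among the mutant libraries. Log2 fold changes were 2.78 ± 0.68 for sma-6 (edgeR adjusted p = 0.0184) and 1.74 ± 0.72 for sma-3 (edgeR adjusted p = 0.114). Without sma-6 replicate 4 the sma-6 value was 1.86 (edgeR adjusted p = 0.0606), and in that fit the sma-3 value was 1.74 and called (edgeR adjusted p = 0.0356). Without wild-type replicate 2 the sma-6 value was 2.65 (edgeR adjusted p = 0.0554).

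Of the 69 tested members 39 were called in no comparison. Among these were cyp-42A1 and cyp-33C8, eighth and ninth by wild-type level per kilobase, whose log2 values were 0.07 and -0.48 in sma-6 mutants and -0.02 and -0.11 in sma-3 mutants. The 7 members without enough counts for a test were cyp-13A11, cyp-13B2, cyp-14A3, cyp-29A4, cyp-33C1, cyp-34A7 and cyp-35B3, each with 0 to 11 counts in every library. The authors' deposited table, which compares sma-3 with N2, holds 13 members at a false discovery rate under 0.05. They are the 13 called here, all with the same sign.

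Transcription factors known from studies of P450 induction or of the tissues that express these genes made a list of 16, all tested. In sma-6 mutants 2 were lower and none higher, where 3.51% of all genes tested were lower, and in sma-3 mutants 1 was higher and 1 lower, where 4.4% and 10.2% of all genes were. The intestinal GATA factor gene elt-2 was lower in both, at 34 ± 4.27 CPM in sma-6 mutants (log2 -0.36, edgeR adjusted p = 0.0137), 36.4 ± 2.73 CPM in sma-3 ones (log2 -0.26, edgeR adjusted p = 0.0437) and 43.5 ± 3.15 CPM in the wild type. The stress factor gene skn-1 was higher in sma-3 mutants (log2 0.19, edgeR adjusted p = 0.0250) and, between the mutants, lower in sma-6 (log2 -0.26, edgeR adjusted p = 0.00292). Between the mutants the aryl hydrocarbon receptor gene ahr-1 was lower in sma-6 (log2 -0.69, edgeR adjusted p = 0.00760) and nhr-86 was higher (log2 0.29, edgeR adjusted p = 0.0182).

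Of 11 tested intestinal markers, 4 were lower in sma-6 mutants, where 3.51% of all genes tested were, and 6 in sma-3 mutants, where 10.2% were. None was higher in either, and the medians were -0.18 and -0.21. Their summed level nevertheless overlapped, at 6678 to 7732 CPM in sma-6 mutants, 6724 to 8256 CPM in sma-3 mutants and 7156 to 8029 CPM in the wild type, and none was at 0. Besides elt-2, the markers lower in both mutants were ifb-2 (log2 -0.48 in sma-6, -0.25 in sma-3), eps-8 (-0.38 and -0.21) and erm-1 (-0.18 and -0.16). The brush border genes act-5 and vha-6 were lower in sma-3 mutants (log2 -0.53, edgeR adjusted p = 0.00327, and log2 -0.27, edgeR adjusted p = 0.00294) and not called in sma-6 mutants (log2 -0.08 each). Between the mutants 2 markers were higher in sma-6, act-5 and vha-6 (log2 0.44 and 0.20), where 12.7% of all genes were. Lower in sma-6 were 3, ifb-2, asp-1 and eps-8 (log2 -0.23, -0.25 and -0.17), where 10.3% of all genes were. Of 11 molting-cycle genes 4 were higher and 1 lower in sma-6 relative to sma-3, where 12.7% and 10.3% of all genes were. Their summed levels were 4945 to 6553 CPM in sma-6, 3911 to 5672 CPM in sma-3 and 4575 to 5609 CPM in the wild type. The part of these markers in the P450 values was not tested.

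Some counts could include reads of an overlapping gene. Exons of 26 members overlap another annotated gene, 11 of them among the called members, and in all but 1 the overlap is on the opposite strand. The kit is named as stranded in the labels, but the strand setting of the counting is not given in the sources used here. The exception, cyp-44A1, shares exon sequence with npp-24 on the same strand, and emb-8 overlaps moc-6 on the opposite strand. Of the partners of called members, 2 were in the table: F01D5.8, opposite cyp-37A1, gave log2 values of 0.02 in both mutants, neither called, at 5.37 to 7.16 CPM in the wild type, and F28G4.2, opposite cyp-37B1, gave 0.25 in sma-6 and 0.41 in sma-3 mutants, neither called.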

How the data were processed

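Poly-A RNA of whole L2 larvae (5 libraries per genotype, 3 genotypes) was extracted with TRIZOL and made into stranded TruSeq libraries, per the labels. The submitters' processing notes name bcl2fastq, STAR 2.5.2b, featureCounts 1.5.2, limma and the build WBcel235, and the counting parameters are not given in the sources used here. The authors deposited whole-number counts per gene and library for 16259 genes, CPM columns that equal count over library total to within 0.0005, and, for sma-3 against the wild type, log2 fold changes, p-values and false discovery rates.

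The deposited counts went unchanged into edgeR 4.0.16 (R 4.3.3): TMM factors, filterByExpr (minimum count 10, minimum total 15), which left 13720 genes, and 1 quasi-likelihood fit to all 15 libraries with genotype as the factor. Standard errors of log2 fold changes came from the F statistic. Adjusted p-values are Benjamini-Hochberg over all genes tested. The labels do not say that libraries came from separate cultures, so p-values measure the spread between these libraries, which may be technical. Depth was 16.5 to 48.3 M counts, and 3 counts in the shallowest library correspond to 0.182 CPM. No molecular identifiers are named, so depth covers counting error alone. The fit was tested on simulated data.

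Positions, exon lengths and overlaps came from the WBcel235 annotation of Ensembl, matched by gene identifier for all 76 members. Levels were compared between genes per kilobase of exon. The members, lists and tests were chosen with earlier results of these data known. Named with values were all members called in some comparison, members with known roles and the 5 highest per kilobase. Called genes were also named for the lists of electron supply, dafachronic acids, transcription factors and intestinal markers. Called genes of the germline, oocyte and molting-cycle lists are given by counts and sums only. The genes cyp-13A7, cyp-33C8, cyp-35B1 and cyp-42A1, and daf-12 among the listed genes, were added after their values were seen. Cell type lists not described in the report are epidermis, muscle, neurons and pharynx: of their 9, 8, 10 and 6 tested genes 1 or 2 were called at most against the wild type in either mutant (epidermis 1 lower in sma-6, muscle 2 higher in sma-6 and 1 higher in sma-3, neurons 1 higher in sma-3, pharynx 0). Between the mutants, in sma-6 relative to sma-3, epidermis had 1 higher and 3 lower, muscle 2 higher and 1 lower, neurons 2 lower, and pharynx 0. Alternatives were RLE factors, library totals, other count filters, DESeq2 1.42.0, limma-voom (limma 3.58.1), a replicate block, fits restricted to the genotypes compared and the omission of each library. All library columns of the table were used.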

Additional observations from a re-analysis of the deposited data

Results flagged for a closer look

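Of 99 groups of 5 libraries examined (33 named members in 3 genotypes), 9 held a library far from the other 4, where chance gives about 1 in 20. In cyp-37B1 sma-6 replicate 4 reached 6.61 CPM while the other sma-6 libraries lay at 0.635 to 2.21 CPM, and wild-type replicate 3 reached 1.05 CPM while the other wild-type libraries lay at 0.0554 to 0.271 CPM. The same sma-6 replicate 4 stood out in cyp-34A8, at 13.4 CPM against 8.97 to 9.95 CPM in its group. Wild-type replicate 5 stood above its group in cyp-13A4, at 5.16 CPM against 3.10 to 3.48 CPM, and in cyp-34A4, at 5.51 CPM against 3.09 to 3.73 CPM. Wild-type replicate 2 was low in cyp-33E2, at 20.3 CPM against 22.3 to 22.6 CPM. In sma-6 mutants replicate 6 was high in cyp-14A1, at 5.79 CPM against 5.04 to 5.15 CPM, and replicate 3 in cyp-31A2, at 2.90 CPM against 1.96 to 2.21 CPM. In emb-8, sma-3 replicate 5 reached 216.9 CPM, where the rest of its group lay at 178.6 to 188 CPM.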

How the results depend on the processing

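Of 45 calls of named members, 18 held under each of 24 alternatives, 27 were lost under at least 1, and none changed sign. Genes of the other lists that are not members are given in the main fit alone. Without single libraries the number of P450 calls ranged from 8 to 12 for sma-6 against the wild type, from 7 to 15 for sma-3 against the wild type (7 without wild-type replicate 2, the deepest library) and from 13 to 22 between the mutants (13 without sma-6 replicate 3). Same-numbered libraries showed at most weak shared deviation (11 pairs, correlations -0.12 to 0.13, 2 over 0.1). These correlations were 0.06 to 0.13 between the wild type and sma-6, -0.02 to 0.075 between the wild type and sma-3, and -0.12 to -0.05 between the mutants. Values this small cannot exclude a pairing by number. A fit with the replicate block on the 13 libraries with shared numbers called 9 members for sma-6 against the wild type, 6 for sma-3 against the wild type and 11 between the mutants. The same libraries without the block gave, in that order, 11, 6 and 17. The sets of 6 differ: of these 2 fits, cyp-34A8 was lost only with the block and cyp-25A3 only without it. How much of the drop was due to the block and how much to fewer libraries was not tested. Under the other alternatives that keep all libraries, the 3 counts stayed within 1.5 times of the reported 11, 13 and 21. Scaled by library totals alone, 66.7% of the sma-3 calls (8 of 12) were higher, against 53.9%, and 50.0% of the calls between the mutants (10 of 20), against 61.9%. That scaling moved the median of all genes by less than 0.1 (log2). Genes under about 2 CPM rest on few counts per library, which limits their precision.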
